A study of Mus musculus with 6 samples.

Results

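The genes described here encode the machinery of endoplasmic reticulum (ER)-associated degradation, ERAD, in mouse bone marrow-derived mesenchymal stromal cells (MSCs). The members were taken from a list of 42 symbols by their textbook role in the pathway, and 41 of the 42 symbols were present in the deposited table of 23420 genes. The list was drawn up with earlier results of these data known. Of these 41, 40 passed a filter on low counts and were tested among 11974 genes, while Derl3 had too few reads. Hm13 had no entry under that symbol and was dropped. The members were sorted into 4 steps: 9 genes for substrate recognition and glycan reading, 11 for the membrane channel and its partners, 9 ubiquitin ligases and adaptors, and 12 for the ATPase Vcp, its cofactors and cytosolic handling.

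The study compared MSCs carrying the thymoproteasome (TPr), a proteasome type otherwise found in cortical thymic epithelium, with control MSCs. Polyadenylated RNA was sequenced from 3 Ctl MSC and 3 MSC-TPr libraries, as the labels name them. Both groups were adherent cultures grown from flushed femurs of 6- to 8-week-old female C57BL/6 mice, kept in AMEM with fetal bovine serum and transduced at passage 5 with an AP2 retroviral vector that also expresses eGFP. In the Ctl MSC group the vector was empty. The MSC-TPr vector coded for the subunits β5t (Psmb11), β1i (Psmb9) and β2i (Psmb10), joined by viral self-cleaving sequences. The transgenes were therefore driven by a virus in a stromal cell, outside the epithelium that normally makes β5t. The labels do not say whether the 3 libraries of a group came from separate animals or cultures, so the p-values measure only the spread between these samples, which may be technical. In bulk RNA, fewer cells of a type and less RNA per cell cannot be told apart.

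ERAD removes proteins that fail to fold in the ER. Mannose-trimming enzymes and lectins mark and pick out misfolded glycoproteins, a membrane complex built around Sel1l, Syvn1 and the derlins passes them to the cytosol, ubiquitin ligases tag them there, and the ATPase Vcp pulls them out of the membrane and hands them to the proteasome. Secretory cells such as stromal cells, which export much collagen, rely on it, and many of its genes are induced by the unfolded protein response.

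Between 16158756 and 22158887 reads per library fell on genes, and levels are given in CPM, the reads of a gene per library size after edgeR's TMM scaling. A level of 3 reads, taken as the floor, is 0.139 to 0.181 CPM and reflects counting error alone. The libraries numbered 1 stood apart from their own groups. Averaged over 30 cell division genes, log2 CPM was 6.65 in Ctl MSC 1 against 3.76 and 3.77 in Ctl MSC 2 and 3, and 3.78 in MSC-TPr 1 against 6.57 and 6.58 in MSC-TPr 2 and 3. Ctl MSC 2 and 3 were the most alike, with a chi-square of 4.97 per gene between their counts, compared with 52.6 to 216 for every other pair. By this measure Ctl MSC 1 was nearer to MSC-TPr 2 and 3 (84 and 84.5) than to Ctl MSC 2 and 3 (181 and 170). MSC-TPr 1 was nearer to Ctl MSC 2 and 3 (77.3 and 68.5) than to MSC-TPr 2 and 3 (162 and 201). None of the transduced genes separated the groups in these RNA counts. The study checked transduction by eGFP expression and by immunoblots of the subunit proteins. Psmb11 had 1 to 6 reads in each library, and Psmb9 and Psmb10 were highest in Ctl MSC 1, at 3.38 and 27.8 CPM. Each direction given here is thus a direction between library labels, and "the controls" means the libraries labelled Ctl MSC. Of 8 MSC markers, 7 were detected in every library, whereas Thy1 had at most 1 read. The study reports CD90, the protein of Thy1, on Ctl MSC by flow cytometry. Only Nt5e separated the groups, at 11.4, 20.2 and 17.4 CPM in the controls against 2.66, 4.2 and 5.24 CPM (log2 fold change −2.02, edgeR adjusted p = 0.079). Col1a1 ran from 354 CPM in MSC-TPr 1 to 6916 CPM in MSC-TPr 3. The 5 endothelial markers summed to 0.785 to 3.32 CPM and the haematopoietic markers to 11 to 17.4 CPM, with Ptprc, Itgam and Cd3e at or near 0. Nearly all of that sum was Cd14, at 3.27 to 13.2 CPM, and Cd68, at 0.789 to 14.2 CPM. Over the libraries numbered 2 and 3 these 2 differed by 1.81 and −2.83 (log2 fold change, edgeR adjusted p = 0.0011 and 0.002). Csf1r, the other haematopoietic marker tested, had 0 to 18 reads and differed there by 3.74 (edgeR adjusted p = 0.004). The part of these markers in the results was not tested.

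The first question was whether the ERAD genes differed between MSC-TPr and Ctl MSC. Over all 6 libraries, 1 member fell, Foxred2, and none rose. Its level in the libraries labelled MSC-TPr was 7.73 CPM on average, compared with 29.0 CPM in the controls. The other 39 genes tested did not pass, although 33 of the 40 log2 fold changes were negative. A gene was called when edgeR's quasi-likelihood test gave a Benjamini-Hochberg adjusted p under 0.05 and its log2 fold change reached 0.5 in either direction.

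The members' log2 fold changes over 6 libraries ran from −1.90 to 0.43 with a median of −0.20, beside a median of 0.01 over all genes tested. The background was low: 0.401% of all genes tested were called lower in MSC-TPr and 0.0251% higher. With edgeR, 3 members had an unadjusted p under 0.05 in the lower direction (Foxred2, Os9 and Ubxn4) and 0 in the higher. Of all 11974 genes tested, 985 were lower and 816 higher at that level, a share that 3 of 40 did not exceed. DESeq2 called 1 member lower and 0 higher, with 4 and 0 at an unadjusted p under 0.05, where it called 3.17% of the 13504 genes with an adjusted p lower and 1.72% higher. The 40 members tested all had one, so 1 of 40 (2.5%) was not above the DESeq2 background. At an unadjusted p under 0.05, DESeq2 had 1196 lower and 1002 higher of 16807 genes. In 3 members every MSC-TPr library lay under every Ctl MSC library (Foxred2, Ufd1l and Ubxn4), where 12.1% of all genes tested did so. In 1 member, Jkamp, every MSC-TPr library lay above every control, where 10.6% of all genes tested did so.

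Leaving out the libraries numbered 1 changed the picture. Over Ctl MSC 2 and 3 against MSC-TPr 2 and 3, 17 of the 40 members were called lower and 0 higher, where 19.4% of 12122 genes were called lower and 20.6% higher. Ngly1 alone had an adjusted p under 0.05 in the higher direction, with a log2 fold change of 0.41, under the fold threshold (edgeR adjusted p = 0.040). DESeq2 was not run on these 4 libraries. With edgeR, 22 members were lower and 1 higher at an unadjusted p under 0.05, as were 3222 and 3386 of all 12122 genes. The median log2 fold change of the members was −0.44. In the same fit 28 of 30 cell division genes were called higher, with a median log2 fold change of 3.24. The label and the level of the cell division genes therefore cannot be told apart in these 4 libraries. The same limit holds for every value over 4 libraries given below. The common dispersion, which measures how far libraries of 1 group scatter, was 0.0168 over these 4 libraries and 0.124 over 6. The 2 controls of this fit were the most alike pair, with a chi-square of 4.97 per gene, and their part in the low dispersion was not tested. Some of the members are genes that the study itself picked from these libraries, so their count is not independent evidence of a direction.

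The pair of libraries left out went the other way. MSC-TPr 1 was above Ctl MSC 1 in 15 of the 17 members called lower over the other 4 libraries (88.2%), compared with 64.2% of all 2356 genes called lower there. The exceptions were Foxred2 and Uggt1. Among all 40 members tested, MSC-TPr 1 exceeded Ctl MSC 1 in 32 (80.0%), against 49.9% of all genes tested. With that cell division average as a covariate in the fit over 6 libraries, 2 members (5%) were called lower (Foxred2 and Svip) and 1 (2.5%) higher (Atxn3), shares no larger than the 7.35% and 4.73% of all genes called lower and higher. The median of the members in that fit was −0.11. Ctl MSC 1 was the only control with a high cell division average. MSC-TPr 1 was the only library of its group with a low one. The label difference in that fit therefore rested on these 2 libraries, each set against the other group. Its common dispersion was 0.025. This limit holds for every value with the covariate given below.

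**Figure D1:**
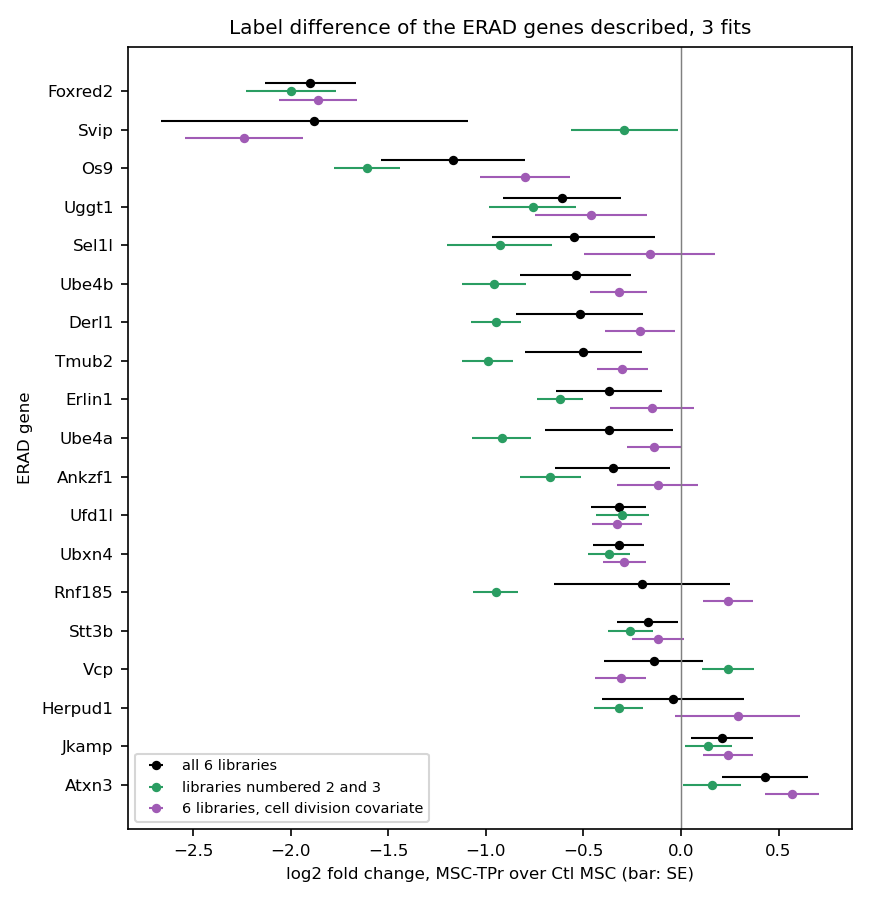
The log2 fold change of MSC-TPr over Ctl MSC (horizontal axis, bars are 1 standard error) is plotted for 19 ERAD genes in 3 edgeR fits, namely all 6 libraries, the libraries numbered 2 and 3, and 6 libraries with the cell division covariate. Foxred2 lies between −2.0 and −1.86 in every fit, whereas Rnf185 moves from −0.95 over 4 libraries to 0.24 with the covariate.

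Described library by library, many members shared a profile: high in Ctl MSC 2 and 3, low in Ctl MSC 1, and intermediate or low in MSC-TPr. The profile was clearest in the membrane complex and in substrate recognition, and faint among Vcp and its cofactors. It was measured as the log2(CPM + 0.25) of each gene minus its own mean over the 6 libraries. The median of this deviation over the 40 members was −0.21 in Ctl MSC 1, 0.27 in Ctl MSC 2 and 0.27 in Ctl MSC 3. It was 0.069 in MSC-TPr 1, −0.25 in MSC-TPr 2 and −0.17 in MSC-TPr 3. The 2 groups overlapped, because Ctl MSC 1 sat among the libraries labelled MSC-TPr.

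Of the 40 members, 18 (45.0%) were higher in both Ctl MSC 2 and 3 than in any of the other 4 libraries, compared with 17.7% of all genes tested. Of 42 other ERAD genes from a separate list, described below, 6 (14.3%) were. Ctl MSC 1 was under both of its group's other libraries in 34 members (85.0%), compared with 46.2% of all genes tested and 47.6% of the 42 other ERAD genes. MSC-TPr 1 was above MSC-TPr 2 and 3 in 26 members (65.0%), compared with 41.1%. The range between libraries was wide in some members and narrow in others: 17 of 40 (42.5%) spanned more than 2-fold between their highest and lowest library, against 46.6% of all genes tested, and 13 (32.5%) spanned less than 1.5-fold, against 21.7%. The cell division genes, which were high in Ctl MSC 1 and MSC-TPr 2 and 3, moved with this profile in the reverse direction, and their part in it beyond the covariate fit was not tested.

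**Figure D2:**
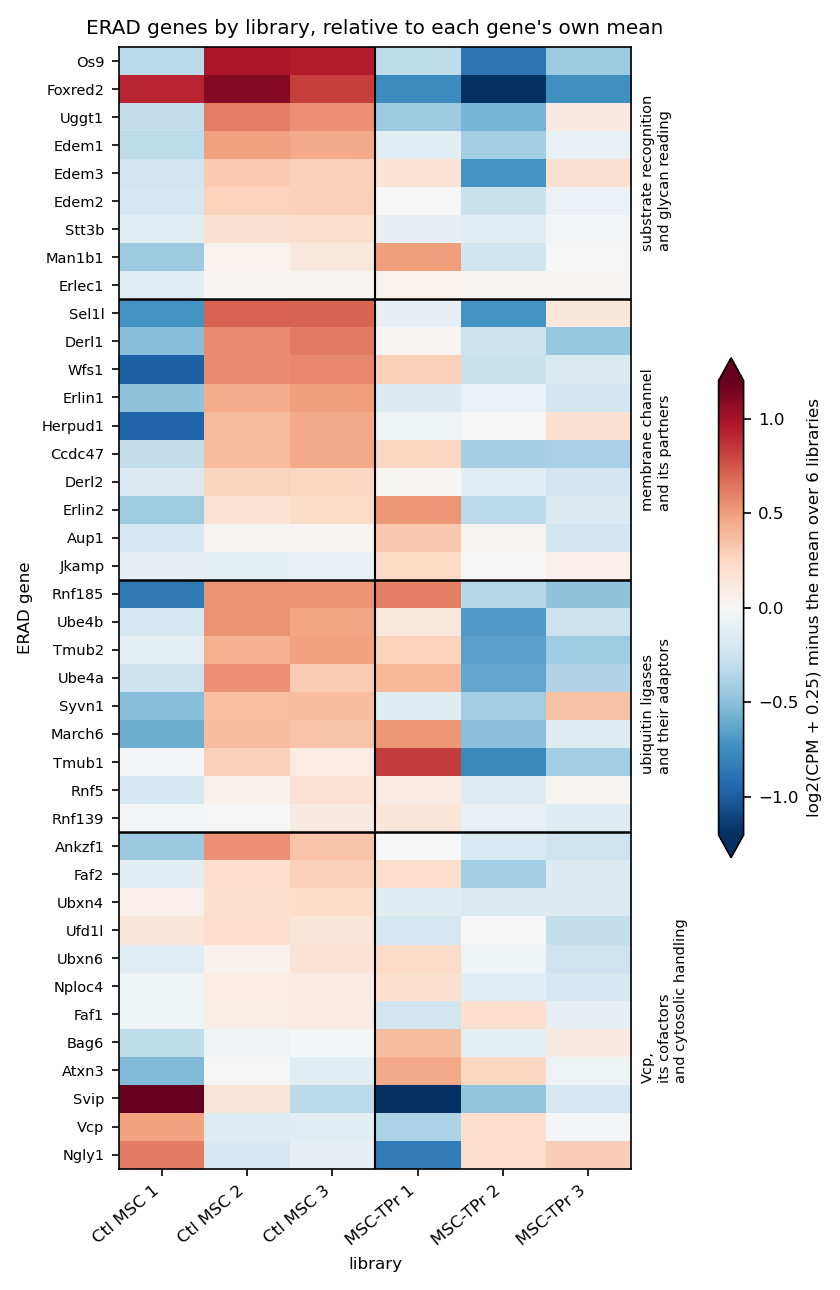
Each row is 1 of the 40 ERAD genes tested and each column 1 library, with colour giving log2(CPM + 0.25) minus the gene's mean over 6 libraries (red above, blue below, saturating beyond the ends of the scale). The red block in Ctl MSC 2 and 3 covers most genes of the recognition, membrane and ligase steps, and Svip stands out as high in Ctl MSC 1.

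The 4 steps did not share the profile equally. In the membrane step the median deviation was −0.46 in Ctl MSC 1 but 0.38 and 0.45 in the other controls, with MSC-TPr 1 at 0.14 and MSC-TPr 2 and 3 at −0.20. The ligases were set apart by MSC-TPr 1, at 0.28, which lay close to Ctl MSC 2 and 3 at 0.37 and 0.34 and well above MSC-TPr 2 and 3 at −0.50 and −0.26. In the recognition step MSC-TPr 1 was at −0.10, and Ctl MSC 1, 2 and 3 were at −0.23, 0.32 and 0.28. For Vcp and its cofactors all 6 medians lay between −0.17 and 0.10. The difference between steps was not tested.

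**Figure D3:**
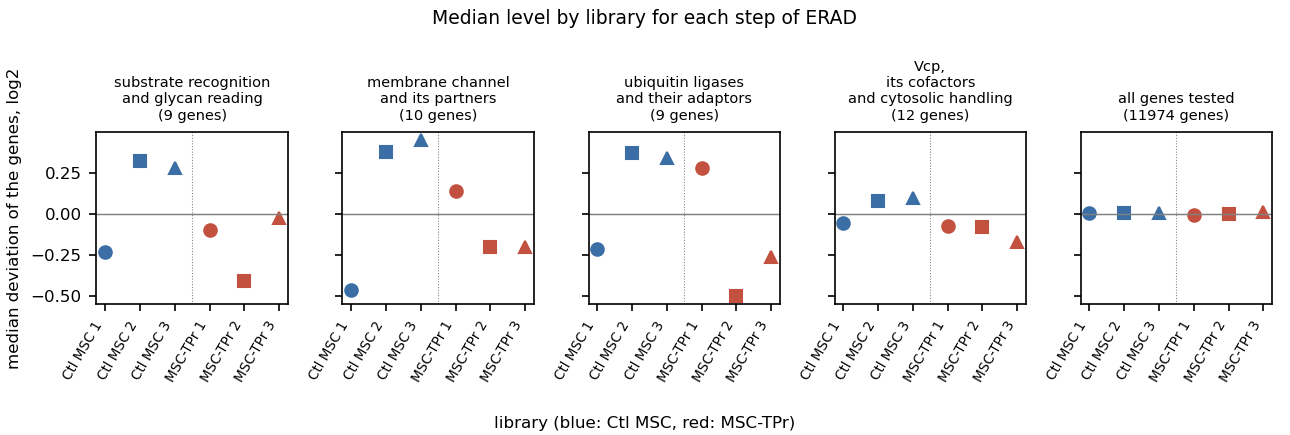
The median deviation (vertical axis, log2(CPM + 0.25) minus each gene's mean over 6 libraries) is plotted for each library in the 4 steps and for all 11974 genes tested, with Ctl MSC in blue and MSC-TPr in red. The medians run from −0.46 to 0.45 in the membrane step and stay near 0 for all genes tested.

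Promoter sequence was examined as a description. Members were chosen by textbook role, and many ERAD genes are known to be induced by the unfolded protein response. The shares of members with a match are therefore not independent of that choice. The unfolded protein response acts on several ERAD genes through the ER stress response element (ERSE, CCAAT and CCACG separated by 9 bases), the related ERSE-II (ATTGG and CCACG separated by 1 base) and the core of the unfolded protein response element (UPRE, TGACGTGG). Both strands were searched in windows from 250 bases before to 50 bases after the RefSeq start on GRCm38.p6, which were at hand for 33 of the 41 members. An ERSE lay in 2 of 33 members (6.06%) and in 0.137% of 27025 genes with a window. An ERSE-II lay in 1 member (3.03%) and in 0.0444% of all genes, and the UPRE core in 1 member (3.03%) and in 0.714% of all genes. The 4 stretches that hold a match are shown because they are the letters behind these counts, with the match in capitals and each read 5′ to 3′ along its gene's strand. They come from chr10:75893198-75893297 (plus strand, Derl3, ERSE read on the opposite strand), chr8:94386319-94386418 (plus, Herpud1, ERSE-II), chr19:6046466-6046565 (plus, Syvn1, ERSE) and chr4:43000568-43000667 (minus, Vcp, UPRE core). The Derl3 match lies 156 to 138 bases before the start, the Herpud1 match 52 to 42, the Syvn1 match 44 to 26 and the Vcp match 114 to 107.
Derl3: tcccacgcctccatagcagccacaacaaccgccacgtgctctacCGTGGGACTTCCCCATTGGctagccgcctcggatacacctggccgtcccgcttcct
Herpud1: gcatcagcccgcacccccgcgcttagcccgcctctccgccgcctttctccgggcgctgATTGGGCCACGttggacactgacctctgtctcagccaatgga
Syvn1: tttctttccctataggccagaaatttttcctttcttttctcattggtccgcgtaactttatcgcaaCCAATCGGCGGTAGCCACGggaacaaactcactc
Vcp: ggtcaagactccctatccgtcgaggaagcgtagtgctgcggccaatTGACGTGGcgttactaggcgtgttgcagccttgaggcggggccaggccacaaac

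A match of letters is a description and not a shown site of binding. The 4 genes did not behave alike. Herpud1 and Syvn1 were lowest in Ctl MSC 1 and high in Ctl MSC 2 and 3, Vcp was highest in Ctl MSC 1, and Derl3 was barely detected.

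The recognition step, in which misfolded glycoproteins are sensed and their sugars read, held the only member called over all 6 libraries. Of its 9 genes, 1 fell over 6 libraries and 4 (44.4%, against 19.4% of all genes) fell over the libraries numbered 2 and 3 (Foxred2, Os9, Uggt1 and Edem1), with medians of −0.25 and −0.50. In what follows, values are listed in the order of libraries 1, 2 and 3 of a group, and coordinates are those of mm10.

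Foxred2 (chr15:77940522-77956722, minus strand) encodes a flavoprotein of the ER lumen that binds Os9 and Sel1l. It counted 28.2, 32.2 and 26.6 CPM in the controls against 8.64, 5.74 and 8.81 CPM in the libraries labelled MSC-TPr, or 29.0 ± 2.9 and 7.73 ± 1.73 CPM (SD, n = 3). The groups were far apart, and the libraries numbered 1 lay with their own group. The log2 fold change was −1.90 (edgeR adjusted p = 0.035, SE 0.235), −2.0 over 4 libraries (edgeR adjusted p = 0.0016) and −1.86 with the cell division covariate (edgeR adjusted p = 0.0017). DESeq2 gave an adjusted p of 4.1e-10. The call did not hold in edgeR when a single library other than Ctl MSC 1 was left out: the adjusted p was 0.175 without Ctl MSC 2, 0.151 without Ctl MSC 3, 0.067 without MSC-TPr 1, 0.176 without MSC-TPr 2 and 0.197 without MSC-TPr 3, with log2 fold changes from −2.0 to −1.73.

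Os9 (chr10:127095650-127121131, minus strand), a lectin that delivers mannose-trimmed proteins to Sel1l, was abundant in the controls numbered 2 and 3. It counted 133, 329 and 323 CPM there against 135, 90.3 and 123 CPM. Ctl MSC 1 and MSC-TPr 1 were nearly equal, so the groups overlapped, and the SD of the controls was 111 CPM around a mean of 262. The log2 fold change was −1.17 over 6 libraries (edgeR adjusted p = 0.228, SE 0.370) and −1.61 over 4 (edgeR adjusted p = 0.0012, SE 0.171). Without Ctl MSC 1 alone it was −1.49 (edgeR adjusted p = 0.045). Erlec1, the related ER lectin, was the flattest gene of the step, at 67.0 to 75.8 CPM in all libraries, a 1.13-fold span (chosen for description after its values were seen).

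Uggt1 (chr1:36140027-36244720, minus strand), the folding sensor that puts glucose back on unfolded glycoproteins, counted 192, 359 and 345 CPM in the controls against 174, 160 and 254 CPM. Its highest MSC-TPr value lay above its lowest control. It differed by −0.61 over 6 libraries (edgeR adjusted p = 0.400, SE 0.301) and by −0.76 over 4 (edgeR adjusted p = 0.034). Stt3b (chr9:115242581-115310421, minus strand), a catalytic subunit of the oligosaccharyltransferase that also glycosylates proteins after translation, counted 334, 415 and 416 CPM against 340, 334 and 359 CPM. Only Ctl MSC 2 and 3 stood out, and the log2 fold change was −0.17 (edgeR adjusted p = 0.648, SE 0.156).

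The mannose-trimming enzymes were lower in Ctl MSC 1 than in the other controls as well. Edem1, Edem2 and Edem3, which shorten the sugar chain of terminally misfolded proteins, had log2 fold changes of −0.46, −0.25 and −0.21 over 6 libraries and −0.71, −0.45 and −0.50 over 4. Of these, Edem1 was called over 4 libraries (edgeR adjusted p = 0.010), Edem2 had an adjusted p of 0.030 in edgeR but missed the fold threshold, and Edem3 did not pass (edgeR adjusted p = 0.188). Man1b1, the ER mannosidase that acts before them, was highest in MSC-TPr 1 at 157 CPM and lowest in Ctl MSC 1 at 82.2 CPM, and had a log2 fold change of 0.19 over 6 libraries.

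The membrane step holds the channel that carries substrates into the cytosol and the proteins that assemble around it. None of its 10 genes tested passed over 6 libraries with edgeR or DESeq2, and with either tool 0 had an unadjusted p under 0.05. Over the libraries numbered 2 and 3, 5 of 10 (against 19.4% of all genes) fell (Derl1, Sel1l, Erlin1, Wfs1 and Ccdc47). In all 10 MSC-TPr 1 was above Ctl MSC 1.

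Sel1l (chr12:91806043-91849157, minus strand), the scaffold that holds the ligase Syvn1 and receives cargo from the lectins, counted 135, 364 and 361 CPM in the controls against 207, 135 and 244 CPM. Ctl MSC 1 equalled MSC-TPr 2, 2.67-fold under Ctl MSC 3. The log2 fold change was −0.55 (edgeR adjusted p = 0.579, SE 0.417), and −0.93 over 4 libraries (edgeR adjusted p = 0.033).

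Derl1 (chr15:57869502-57892448, minus strand), a derlin that forms part of the channel, counted 287, 603 and 628 CPM against 418, 340 and 298 CPM. Ctl MSC 1 was again the lowest of all libraries, under every MSC-TPr value. It differed by −0.52 over 6 libraries (edgeR adjusted p = 0.501, SE 0.324) and by −0.95 over 4 (edgeR adjusted p = 0.0026, SE 0.128). Its relatives differed in amount: Derl2 ran from 72.7 to 102 CPM, whereas Derl3 (chr10:75893413-75895941, plus strand) had 1, 2 and 2 reads in the libraries labelled Ctl MSC and 1, 0 and 1 in those labelled MSC-TPr, at or under the floor of 3 reads in every library.

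Herpud1 (chr8:94386438-94395377, plus strand), a membrane protein with a ubiquitin-like domain that helps assemble the Syvn1 complex and carries the ERSE-II shown above, counted 132, 334 and 352 CPM in the controls against 247, 256 and 292 CPM. All 3 MSC-TPr libraries lay between Ctl MSC 1 and the other controls. The log2 fold change was −0.04 (edgeR adjusted p = 0.970, SE 0.364) over 6 libraries, −0.32 over 4 and 0.29 with the cell division covariate, a change of sign without a call in any of the 3.

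Erlin1 (chr19:44034944-44069785, minus strand), which with Erlin2 forms a ring that targets activated calcium channels, counted 148, 283 and 293 CPM against 185, 196 and 177 CPM. The MSC-TPr values were tightly grouped, with an SD of 9.23 CPM compared with 81.0 CPM in the controls. It differed by −0.37 over 6 libraries (edgeR adjusted p = 0.563, SE 0.272) and by −0.62 over 4 (edgeR adjusted p = 0.008). Erlin2, in contrast, was highest in MSC-TPr 1 at 111 CPM, and its log2 fold change was 0.04 over 6 libraries and −0.44 over 4.

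Jkamp (chr12:72085589-72101461, plus strand), which links proteasomes to ERAD factors at the ER membrane, had the opposite order from most members. It counted 22.7, 22.4 and 22.8 CPM in the controls against 28.8, 24.4 and 25.5 CPM, so the groups did not overlap. The difference was small, at a log2 fold change of 0.21 (SE 0.159), and did not pass (edgeR adjusted p = 0.580). Wfs1, the ER membrane protein affected in Wolfram syndrome, spanned 2.94-fold, from 44.4 CPM in Ctl MSC 1 to 131 CPM in Ctl MSC 3, and Ccdc47 and Aup1 spanned 1.8-fold and 1.47-fold.

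The ubiquitin ligases and their adaptors had the largest shift over 4 libraries, with a median log2 fold change of −0.80, but a median of −0.17 over 6. None of the 9 passed over 6 libraries with edgeR or DESeq2, and 0 had an unadjusted p under 0.05 with either. Over the libraries numbered 2 and 3, 6 (66.7%, against 19.4% of all genes) fell (Tmub2, Ube4b, Rnf185, Ube4a, Tmub1 and March6). In each of the 9, Ctl MSC 1 was under Ctl MSC 2 and 3, and MSC-TPr 1 was above Ctl MSC 1. With the cell division covariate the median was 0.0027 and 0 of 9 were called, of which 1 had an unadjusted p under 0.05.

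Rnf185 (chr11:3415982-3452363, minus strand), a membrane ligase that works with Rnf5 on misfolded channels, gave the clearest case. It counted 53.8, 142 and 141 CPM in the controls against 148, 76.6 and 69.4 CPM. The library numbered 1 took the place of the other group on both sides, and Ctl MSC 1 and MSC-TPr 1 were the lowest and highest of all 6. It differed by −0.20 over 6 libraries (edgeR adjusted p = 0.875, SE 0.452), by −0.95 over 4 (edgeR adjusted p = 0.0018, SE 0.114) and by 0.24 with the covariate (edgeR adjusted p = 0.244). Rnf5 ran from 14.2 to 18.3 CPM, a 1.29-fold span, with a log2 fold change of −0.03.

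Ube4b (chr4:149328416-149426749, minus strand), an enzyme that lengthens ubiquitin chains and binds Vcp, counted 174, 293 and 280 CPM against 220, 126 and 168 CPM. Its groups overlapped through Ctl MSC 1 and MSC-TPr 1, and it differed by −0.54 over 6 libraries (edgeR adjusted p = 0.433, SE 0.286) and −0.96 over 4 (edgeR adjusted p = 0.0057). Ube4a (chr9:44923127-44965600, minus strand), the other chain-lengthening enzyme, counted 57.8, 102 and 85.4 CPM against 91.2, 45.0 and 53.9 CPM. MSC-TPr 1 lay above Ctl MSC 1 and Ctl MSC 3, so the groups overlapped, and the log2 fold change was −0.37 (edgeR adjusted p = 0.651, SE 0.329) over 6 libraries and −0.92 over 4 (edgeR adjusted p = 0.0049).

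Tmub2 (chr11:102284931-102289237, plus strand), a membrane protein with a ubiquitin-like domain, counted 34.2, 49.9 and 52.1 CPM against 45.0, 23.6 and 27.6 CPM. MSC-TPr 1 was the only MSC-TPr library above a control. It differed by −0.50 over 6 libraries (edgeR adjusted p = 0.485, SE 0.298) and by −0.99 over 4 (edgeR adjusted p = 0.0025). Its relative Tmub1 was scarcer, at 3.73 to 11.9 CPM, and highest in MSC-TPr 1. Syvn1, the ligase at the centre of the Sel1l complex, counted 63.3, 116 and 117 CPM in the controls against 81.4, 67.3 and 115 CPM, and did not pass in any of the 3 fits (edgeR adjusted p = 0.840 over 6 libraries, 0.280 over 4 and 0.996 with the covariate). March6 ran from 109 CPM in Ctl MSC 1 to 238 CPM in MSC-TPr 1, and Rnf139 from 48.7 to 59.7 CPM.

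**Figure D4:**
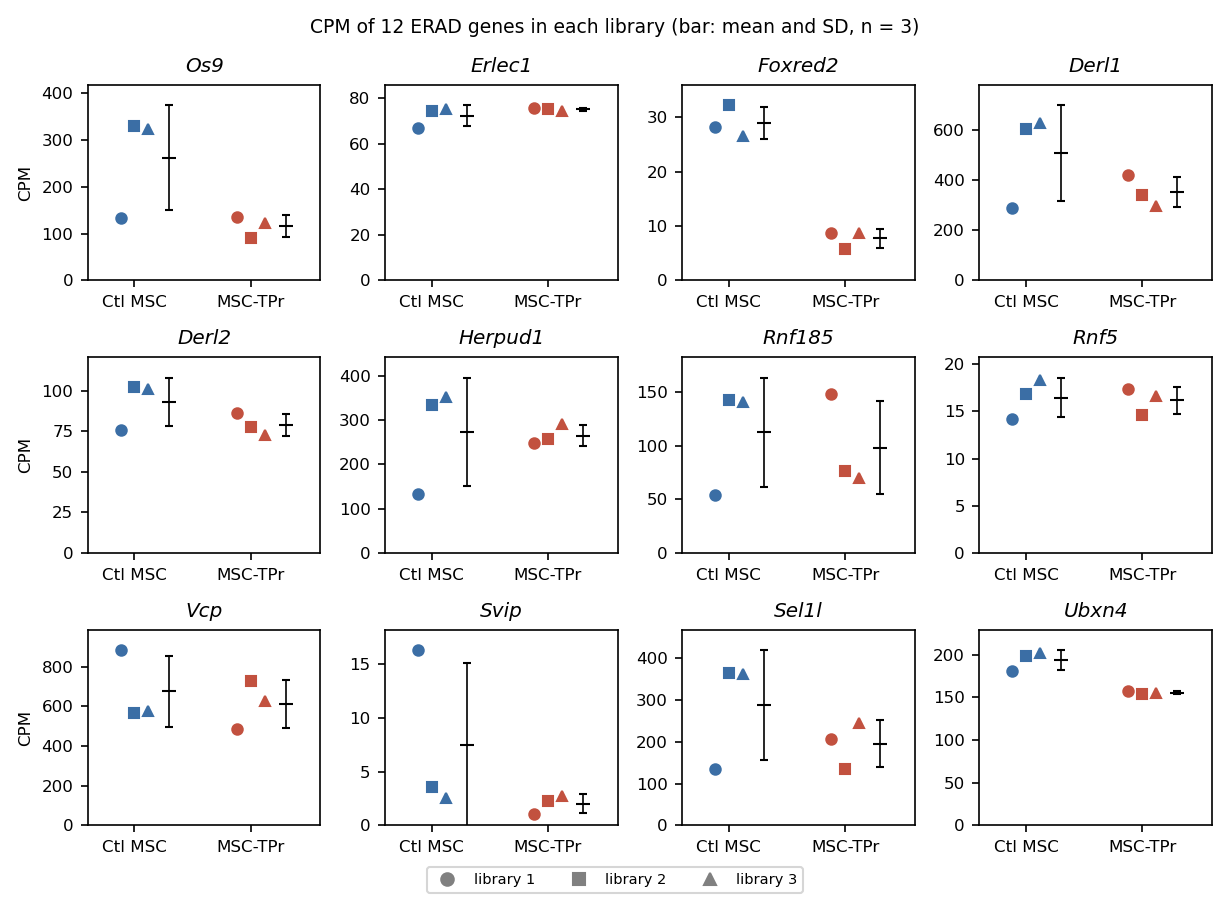
CPM (vertical axes starting at 0) of 12 ERAD genes is plotted for each library of Ctl MSC (blue) and MSC-TPr (red), with marker shape giving the library number and black bars the mean and SD of 3 libraries (the Ctl MSC bar of Svip runs under 0 and is cut there). Foxred2 and Ubxn4 separate the groups, whereas in Os9, Sel1l, Derl1, Herpud1 and Rnf185 Ctl MSC 1 lies far under Ctl MSC 2 and 3.

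The last step, Vcp with its cofactors and the cytosolic handling of extracted proteins, varied least. None of its 12 genes passed over 6 libraries with edgeR or DESeq2, with 1 and 2 at an unadjusted p under 0.05, and its median stood at −0.16 (log2 fold change). Over the libraries numbered 2 and 3, 2 fell (Ankzf1 and Faf2), a share of 16.7% that did not exceed the 19.4% of all genes, and Ubxn4 had an adjusted p of 0.034 in edgeR without reaching the fold threshold. Only 3 of the 12 spanned more than 2-fold between libraries.

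Vcp (chr4:42979963-43000507, minus strand), the ATPase that extracts substrates from the membrane, ran against the common profile. It counted 881, 566 and 578 CPM in the controls against 484, 728 and 625 CPM. The highest library was Ctl MSC 1 and the lowest MSC-TPr 1. The 3 highest libraries, Ctl MSC 1 and MSC-TPr 2 and 3, were also the 3 highest for the cell division genes. Its log2 fold change was −0.14 over 6 libraries (edgeR adjusted p = 0.837, SE 0.253), 0.24 over 4 (edgeR adjusted p = 0.174) and −0.31 with the covariate (edgeR adjusted p = 0.150), so its sign turned with the libraries used.

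Ufd1l and Ubxn4, both Vcp cofactors, were the other members with groups that did not overlap in the lower direction. Ufd1l (chr16:18811779-18835261, plus strand), which with Nploc4 guides Vcp to ubiquitinated proteins, counted 75.9, 78.9 and 75.9 CPM against 59.1, 68.8 and 56.4 CPM. The gap was small, at a log2 fold change of −0.32 (edgeR adjusted p = 0.343, SE 0.141). Ubxn4 (chr1:128243964-128279378, plus strand), which anchors Vcp at the ER membrane, counted 181, 198 and 202 CPM against 157, 154 and 155 CPM. The MSC-TPr libraries had an SD of 1.37 CPM, and the log2 fold change of −0.32 (SE 0.129) did not pass over all genes (edgeR adjusted p = 0.316). Both genes gave similar values over 4 libraries, −0.30 and −0.37, and with the covariate, −0.33 and −0.29. Nploc4 itself ran from 139 to 181 CPM and had a log2 fold change of −0.08.

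Svip (chr7:51997171-52006018, minus strand), a small Vcp-binding protein that inhibits ERAD, had the widest span of all members, 15.5-fold. It counted 16.3, 3.58 and 2.54 CPM in the controls against 1.05, 2.25 and 2.74 CPM. Ctl MSC 1 carried much of the difference. The log2 fold change was −1.88 over 6 libraries (edgeR adjusted p = 0.333, SE 0.786) and −0.60 without Ctl MSC 1 alone (edgeR adjusted p = 0.460). Without MSC-TPr 1 alone, the lowest library, it was −1.57 (edgeR adjusted p = 0.353), and over 4 libraries −0.29 (edgeR adjusted p = 0.423). With the cell division covariate, a fit that also leans on Ctl MSC 1, it was −2.24 (edgeR adjusted p = 0.0052, SE 0.304).

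Atxn3 (chr12:101918901-101958246, minus strand), a deubiquitinase that trims chains on Vcp-bound proteins, had the highest log2 fold change of the list, 0.43 (edgeR adjusted p = 0.413, SE 0.219). It counted 23.5, 34.3 and 31.3 CPM against 46.9, 40.6 and 32.7 CPM, with 1 MSC-TPr library under the highest control. With the covariate the log2 fold change was 0.57 and passed (edgeR adjusted p = 0.035), whereas over 4 libraries it was 0.16 (edgeR adjusted p = 0.407). Ankzf1 (chr1:75192151-75199387, plus strand), a Vcp partner that releases stalled chains from ribosomes, counted 8.28, 16.7 and 14.5 CPM against 11.3, 10.0 and 9.56 CPM. Ctl MSC 1 was the lowest library, and the log2 fold change was −0.35 over 6 libraries (edgeR adjusted p = 0.619, SE 0.294) and −0.67 over 4 (edgeR adjusted p = 0.016).

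The remaining genes of this step are given by their ranges. Bag6, a chaperone of exposed membrane segments, ran from 186 CPM in Ctl MSC 1 to 297 CPM in MSC-TPr 1, and Faf1 from 111 to 150 CPM. Faf2, the membrane-bound relative of Faf1, ran from 68.9 to 112 CPM and had a log2 fold change of −0.53 over 4 libraries (edgeR adjusted p = 0.019) but −0.23 over 6 (edgeR adjusted p = 0.658). Ngly1, the enzyme that removes glycans from extracted proteins, had the reverse profile of most members: it was lowest in MSC-TPr 1 at 12.2 CPM and highest in Ctl MSC 1 at 34.0 CPM, a 2.79-fold span.

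Levels were compared between genes as CPM per kilobase of exon, averaged over 6 libraries. The length is that of all annotated exons of a gene merged, which can exceed the transcript expressed, so the order of genes depends on it. The most abundant ERAD transcripts were Vcp (133 CPM per kilobase), Derl1 (129), Herpud1 (115), Stt3b (86.8) and Os9 (71.8). Vcp, Derl1 and Herpud1 overlapped between libraries: Derl1 ran from 86.1 to 189, Herpud1 from 56.5 to 151 and Vcp from 99.9 to 182 CPM per kilobase, so their order was not fixed. Within some families 1 gene lay above its relatives in every library, by an amount that depended on the library. Os9 ran from 34.4 to 125 CPM per kilobase and Erlec1 from 20.6 to 23.3, so that they stood at 34.4 and 23.1 in MSC-TPr 2 but at 125 and 22.8 in Ctl MSC 2. Derl1, at 86.1 to 189, did not meet Derl2, at 9.03 to 12.7. The lengths used were 3328 and 8049 bases, and in CPM the 2 genes stood at 287 to 628 and 72.7 to 102. Erlin1 ran from 29.9 to 59.1 and Erlin2 from 9.78 to 19.0, and Rnf185 ran from 18.5 to 50.8 and Rnf5 from 9.57 to 12.3. The lowest members after Derl3 were Svip at 1.33, Ankzf1 at 2.28, Ngly1 at 3.06 and Foxred2 at 3.09 CPM per kilobase. The called gene, Foxred2, was therefore among the scarcest of the recognition step, with 0.966 to 5.42 CPM per kilobase across libraries.

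**Figure D5:**
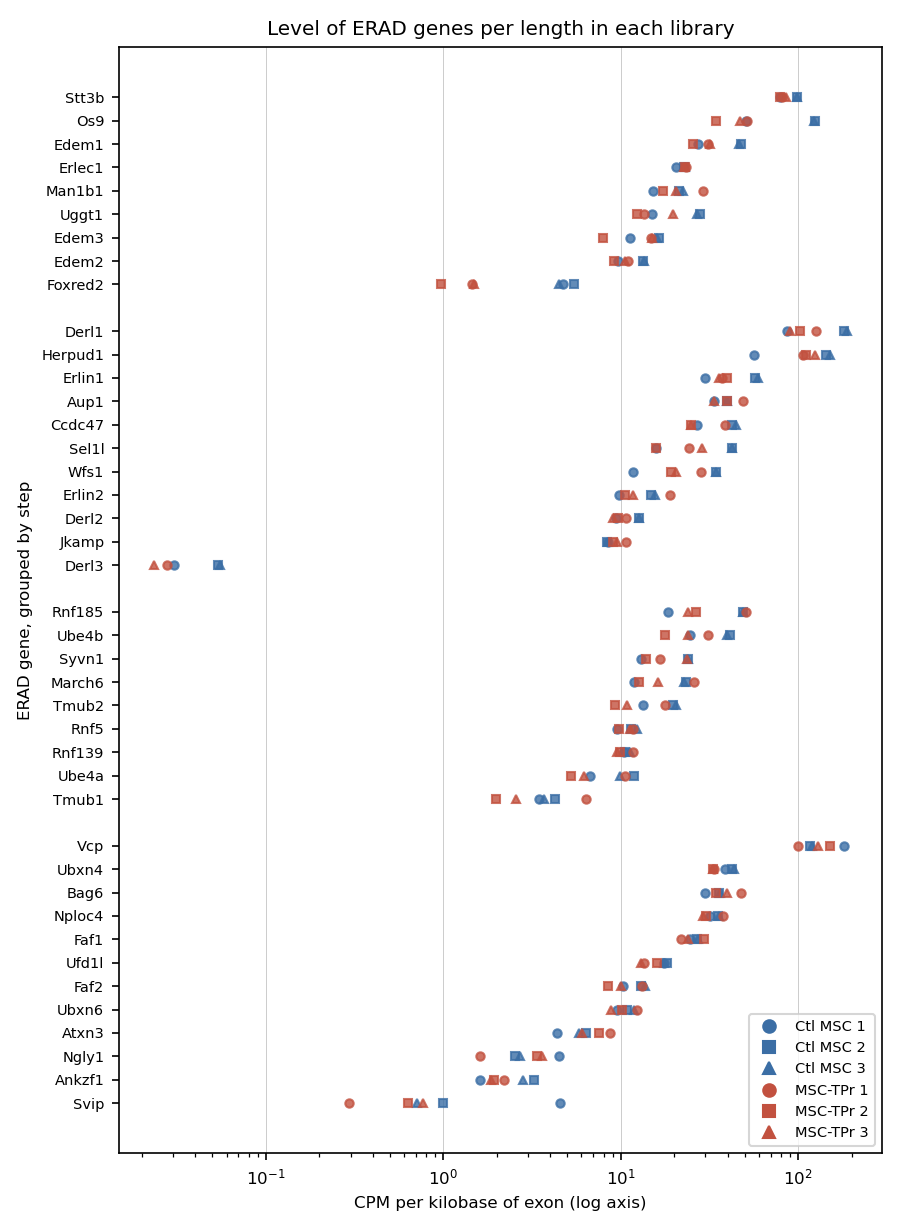
Levels of 41 ERAD genes in CPM per kilobase of exon (horizontal log axis), grouped by step and sorted by mean, are plotted for each library. Vcp, Derl1 and Herpud1 reach beyond 100 CPM per kilobase, while Derl3 stays under 0.1, with MSC-TPr 2 at 0 and so not drawn.

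Other genes of the pathway were counted from a separate list of 44, of which 43 were in the table and 42 were tested. None was called over 6 libraries with edgeR, where 2 were higher and 3 lower at an unadjusted p under 0.05, and DESeq2 called 1 higher. Over the libraries numbered 2 and 3, 7 (16.7%) were called higher and 6 (14.3%) lower, under the 20.6% and 19.4% of all genes, and the median was 0.02 over 6 libraries and −0.0012 over 4. The profile of the members was not seen in this list as a whole. Both Ctl MSC 2 and 3 exceeded all other libraries in 6 of 42 (14.3%), against 17.7% of all genes tested. The median deviation of the list lay between −0.026 and 0.067 in every library. The 3 largest log2 fold changes were those of Fbxo2, Txndc16 and Txndc11. Fbxo2, a glycan-binding ligase subunit, counted 1.27, 0.534 and 0.827 CPM in the controls against 1.55, 4.14 and 3.66 CPM (log2 fold change 1.83, edgeR adjusted p = 0.195, SE 0.513), without overlap. Txndc11, a thioredoxin-like partner of the Edem proteins, counted 52.1, 87.8 and 92.3 CPM against 38.8, 39.5 and 48.1 CPM (log2 fold change −0.88, edgeR adjusted p = 0.200, SE 0.249), also without overlap. Txndc16 counted 31.9, 87.1 and 91.4 CPM against 47.1, 22.1 and 22.9 CPM, with overlap (log2 fold change −1.19, edgeR adjusted p = 0.318, SE 0.483).

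The ER chaperones and regulators of the unfolded protein response were also examined, since that response induces several members. Of 21 genes, 0 were called over 6 libraries with edgeR, with 3 lower and 0 higher at an unadjusted p under 0.05, and DESeq2 called 1 lower. The median log2 fold change of these genes was −0.20, as for the ERAD members, and 8 (38.1%, against 19.4% of all genes) fell over the libraries numbered 2 and 3. Both Ctl MSC 2 and 3 exceeded all other libraries in 15 of 21 (71.4%). Their summed level was 13707, 23822 and 24630 CPM in the controls against 17981, 17125 and 17658 CPM. Sdf2l1, an ER-resident chaperone cofactor, separated the groups, at 110, 151 and 164 CPM against 56.7, 60.2 and 71.9 CPM (log2 fold change −1.17, edgeR adjusted p = 0.077, SE 0.200). Ern1, the sensor IRE1α, and Hsp90b1, an abundant chaperone, had log2 fold changes of −1.01 (edgeR adjusted p = 0.444) and −0.69 (edgeR adjusted p = 0.341).

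Some counts carry an added uncertainty, because exons of members overlap other genes and the strand setting of the counting is not given in the sources used here. The largest overlaps were those of Ubxn6 with Chaf1a on the opposite strand (81.8% of its exon bases), Rnf5 with an antisense gene (24.7%), Aup1 with Htra2 (23.0%) and Rnf139 with Tatdn1 (22.3%). Ccdc47 shared 2.5% of its exon bases with Strada, and Rnf139 shared 3.9% with Gm49356, on the same strand. Among the genes described library by library, Vcp (7.3%), Syvn1 (1.9%), Ufd1l (4.8%), Jkamp (4.5%), Ankzf1 (9.8% with Glb1l), Ube4a (5.0%) and Ube4b (6.4% and 4.2% with 2 antisense genes) had smaller overlaps on the opposite strand.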

How the data were processed

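Per the submitters' processing notes, CASAVA 1.8.2, Trimmomatic 0.35 and TopHat2 2.1.0 were used with the mm10 build. The authors counted reads on genes with Htseq-count and deposited raw counts without normalization. The version and strand setting are not given in the sources used here. The 5 rows that name no gene held 13.8% to 20.8% of the reads and were left out. Tests were run with edgeR 4.0.16 under R 4.3.3 (TMM, filterByExpr, quasi-likelihood test, group as the only term, Benjamini-Hochberg adjustment over all genes). DESeq2 1.42.0, the tool the study names, was an alternative. The standard error is the size of the log2 fold change divided by the square root of F. Both tools were tested on simulated data. Coordinates and exon lengths came from GENCODE on mm10 (98.3% of symbols matched). One marker of the lists is not reported here. Members and lists were chosen with earlier results of these data known. Genes given by library were those called, those whose groups did not overlap, the 3 largest log2 fold changes and 2 highest levels per length of each step, and members with fewer than 10 reads in every library. Other genes were picked after their values were seen. Alternatives were other scaling, filters and thresholds, each library left out, only the libraries numbered 2 and 3, the replicate number as a block, and a cell division covariate (mean log2 CPM with a prior count of 2).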

Additional observations from a re-analysis of the deposited data

How the results depend on the processing

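RLE scaling, no filter on low counts and the adjusted p alone changed no call of the 19 members followed and turned no direction. Across 14 alternatives, 235 of 266 values kept direction and side of the threshold, 13 gained a call, 6 lost it and 12 turned. Members called lower, 1 over 6 libraries, numbered 17 over the libraries numbered 2 and 3, 2 with the cell division covariate and 0 to 2 with 1 library left out. Members called higher numbered 1 with the covariate. The members' median was −0.44 over the libraries numbered 2 and 3. Over all genes, 3 higher and 48 lower became 232 and 428 with DESeq2, 2498 and 2356 over the libraries numbered 2 and 3, 566 and 880 with the covariate, and 0 to 11 and 0 to 105 with 1 library left out. Genes called lower numbered 29 where every library needed at least 10 reads. Other ERAD genes called, 0 over 6 libraries, numbered 1 with DESeq2, 13 over the libraries numbered 2 and 3, and 3 with the covariate. The cause was not tested, except that fewer genes were tested with at least 10 reads required. Herpud1 turned to 0.29 with the covariate and to 0.0084 to 0.18 without Ctl MSC 2, Ctl MSC 3 or MSC-TPr 1, within −0.37 to 0.18 over all fits with 1 library left out. Rnf185 turned to 0.24 with the covariate and to 0.0021 to 0.0039 without Ctl MSC 2, Ctl MSC 3 or MSC-TPr 3, within −0.62 to 0.0039. Vcp turned to 0.24 over the libraries numbered 2 and 3, 0.10 without Ctl MSC 1 and 0.0044 without MSC-TPr 1, within −0.28 to 0.10.

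Whether the replicate numbers shared by the groups pair the libraries could not be decided. Between libraries sharing a number, the correlations of deviations were −0.765, −0.594 and −0.604, and 0 of 3 correlated best with their own number. In cell division genes, however, Ctl MSC 1 lay above the rest of its group and MSC-TPr 1 under the rest of its own. That contrast by itself favours negative values, with or without pairing. With the replicate block, edgeR called 0 members and 0 genes in either direction (1 member and 776 genes at an unadjusted p under 0.05), Foxred2 had a log2 fold change of −1.92 (edgeR adjusted p = 0.451), and Herpud1 turned to 0.079.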
